A study of Homo sapiens with 6 samples.

Results

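The genes described here encode the subunits of the respiratory chain and of ATP synthase, the nuclear ones and those on mitochondrial DNA. They were chosen by symbol alone from the protein-coding genes of the deposited table: symbols starting with MT-, NDUFA, NDUFB, NDUFC, NDUFS, NDUFV, UQCR, UQCC, COX4 to COX8 or ATP5, with SDHA, SDHB, SDHC, SDHD and CYC1 added and the NDUFAF assembly factors left out. This gave 110 genes of the 58735 in the table, with 38 of complex I, 4 of complex II, 10 of complex III, 6 assembly factors of complex III (the UQCC genes), 19 of complex IV, 20 of complex V and 13 encoded by mitochondrial DNA. NDUFA4 and its paralog NDUFA4L2 were counted with complex IV, where the NDUFA4 protein sits. The samples were RKO cells, a human colorectal carcinoma line, that had received either DMSO as solvent control or EZA, an agent the labels give by this name alone. Dose and duration are not given among the sources used here. There were 3 replicates in each group, called biological by the study, and the question was how the transcript levels of treated and control cells differ.

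The respiratory chain passes electrons from NADH and succinate to oxygen in the inner mitochondrial membrane. Complex I oxidises NADH, complex II oxidises succinate, both hand electrons to ubiquinone, and complexes III and IV carry them on through cytochrome c to oxygen. Complexes I, III and IV pump protons, and ATP synthase (complex V) uses the return of those protons to make ATP. Most subunits are made from nuclear genes and imported, while a small core of hydrophobic subunits is made inside the organelle from mitochondrial DNA, so each complex except II is built from both genomes.

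The 6 libraries held 14070611 to 18840954 counts, and 13503 genes had enough counts to be tested, 100 of the respiratory chain genes among them. Of 7 epithelial and colon markers, KRT18 (109.6 to 136 CPM, counts scaled to library size), KRT8 (15.7 to 34.8 CPM), CDX2 (11.4 to 22 CPM) and EPCAM (6.57 to 8.2 CPM) were present in all libraries. KRT19 and VIL1 had at most 1 count in a library and CDH1 had 0, so these 3 were absent or nearly so. All 4 blood markers had 0 counts. Markers of fibroblasts, endothelium and muscle summed to at most 0.707 CPM per list in any library, and 5 of these 11 genes had 0 counts. EZA replicate 3 differed from the rest: mitochondrially encoded genes took 0.203% of its counts, against 3.68% to 5.02% in the other 5. Results are therefore given with and without EZA replicate 3. The libraries do not mark strand, and 15 of the 110 genes had at least 30% of their main transcript under exons of other genes, so their counts are uncertain. In bulk samples, fewer cells of a type and less RNA per cell cannot be told apart.

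In DMSO-treated cells the mitochondrially encoded transcripts were far more abundant than the nuclear ones. On the deposited FPKM scale (fragments scaled by gene length and library size, which allows levels of different genes to be compared), MT-ATP6, a proton channel subunit of ATP synthase, had the highest level of all at 7099.9 ± 347 (SD, n = 3), followed by MT-CO1 at 6282 ± 354. Of the mitochondrial genes only MT-ATP8 lay below 1000, at 59.8 FPKM. Among nuclear genes, ATP5F1B, the catalytic beta subunit of ATP synthase, led with 412 ± 7 FPKM and NDUFS5, an accessory subunit of complex I, came next with 362. The highest in the other complexes were COX8A with 198 ± 22, UQCRH, the hinge protein of complex III, with 161 ± 8.80, SDHB, the iron-sulfur subunit of complex II, with 35.1, and the assembly factor UQCC4 with 20.2. Levels inside a complex spread widely: subunits of complex I ranged from 0.207 FPKM for NDUFA7 to 362 for NDUFS5 (apart from a readthrough gene, NDUFC2-KCTD14, at 0), with 77.9% of the NDUFA7 transcript under exons of other genes. These levels rest on 1 length per gene that the authors used. It was 4792 bases for COX4I1 and 14160 for SDHC, whose main transcripts have 763 and 1308 bases. For COX8A it was 507, close to the 494 of its main transcript. The order of genes in a complex can therefore change with another choice of length.

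**Figure D1:**
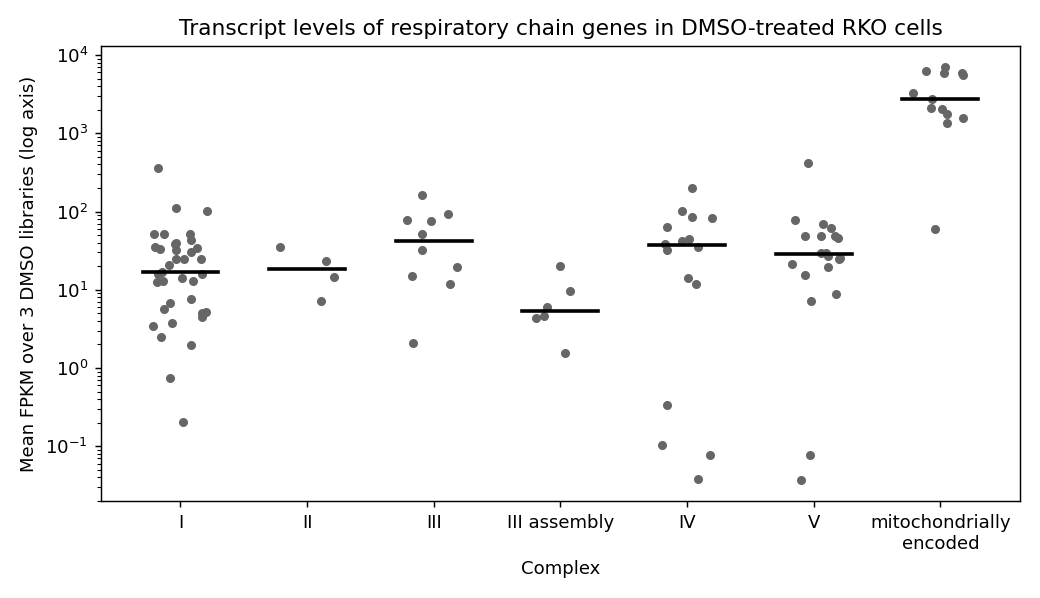
Mean deposited FPKM of each gene over the 3 DMSO libraries (log axis) by complex, 1 point per gene, with the line at the median of the genes drawn; 4 genes with a mean of 0 are not drawn. The mitochondrially encoded genes lie between 1359 and 7099.9 FPKM apart from MT-ATP8 at 59.8, and the highest nuclear gene, ATP5F1B, lies at 412.

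The complex IV isoforms present were the widely expressed ones. COX4I1, COX6A1, COX6B1, COX7A2, COX7B and COX8A had 62.8, 39, 102, 44.4, 14 and 198 FPKM in DMSO. Their tissue-restricted counterparts were nearly absent in every library. COX4I2 (lung), COX6A2 (heart and muscle) and COX7B2 (testis) had 0 of 95568035 counts, which allows up to 0.0314 CPM. COX7A1, the heart and muscle form, had 11 counts over all 6 libraries, the testis form COX6B2 had 15 and COX8C had 3. NDUFA4L2, which is induced by hypoxia-inducible factor in many cells, lay at 0.34 FPKM in DMSO against 32.7 for NDUFA4.

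With all 6 libraries, 4 of the 100 tested genes were higher in EZA (NDUFV1, COX7A2L and NDUFA4L2 among them) and 2 were lower (NDUFA5 and NDUFV2). Calls are at an adjusted p below 0.05 in edgeR's quasi-likelihood test with Benjamini-Hochberg adjustment over all genes tested. Of all 13503 genes, 9.89% were called higher and 7.82% lower, 17.7% in all, so the 6 calls were a smaller share than the background. At an unadjusted p below 0.05, 15 were higher and 3 lower, against 18% and 16.6% of all genes. The EZA and DMSO libraries did not overlap for 29 of the 100 genes, against 42.7% of all genes. Of the 29, 17 were higher and 12 lower in EZA, against 21% and 21.7% of all genes. The median log2 fold change was 0.07 over the 87 tested nuclear genes and -0.01 over all genes. The calls depended on single libraries: without DMSO replicate 1, 2 or 3 in turn, 0 were called in either direction, with 8, 10 and 5 higher and 2, 3 and 3 lower at an unadjusted p below 0.05. Of all genes, these fits called 1.6%, 5.71% and 1.84%. DESeq2 on all 6 libraries called 7 higher and 2 lower, against 12.2% and 8.98% of the genes to which it gave an adjusted p. Other scalings gave 4 higher and 1 lower with DESeq2's size factors and 5 higher and 1 lower with factors computed without the mitochondrially encoded genes. Over all genes, scaling by library size alone turned 1336 higher and 1056 lower into 1059 and 1270.

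Without EZA replicate 3 the counts were larger, with 22 genes higher and 7 lower, against 19.1% and 19.2% of 13787 genes tested, 38.4% together. All 6 genes called with every library were among these 29. By complex, 9 were higher and 2 lower of 36 in complex I, 0 and 1 of 4 in complex II, 2 and 0 of 10 in complex III, 0 and 0 of 6 assembly factors, 9 and 0 of 13 in complex IV, 2 and 0 of 18 in complex V, and 0 and 4 of 13 mitochondrially encoded genes. For the 6 assembly factors, 1 was higher and 0 were lower at an unadjusted p below 0.05. Fold changes in these libraries moved with GC content. The difference of EZA replicates 1 and 2 from DMSO had a Spearman rho of 0.54 with transcript GC content over the 87 nuclear genes and 0.53 over 11417 nuclear protein-coding genes, a description over genes that share libraries. A corrected fit removed the trend of each library's counts with GC content and transcript length. In the corrected fit without EZA replicate 3, 18 were higher and 8 lower, against 19.4% and 19.4% of all genes, 38.8% in all. Of the calls made without EZA replicate 3, 7 of the 22 higher and 2 of the 7 lower were called in the same direction after the correction. In the corrected fit of all 6 libraries, 3 were higher (COX7A2L, NDUFA1 and ATP5F1E) and 0 lower, with 3 lower at an unadjusted p below 0.05, against 6.39% and 5.09% of all genes, 11.5% together.

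**Figure D2:**
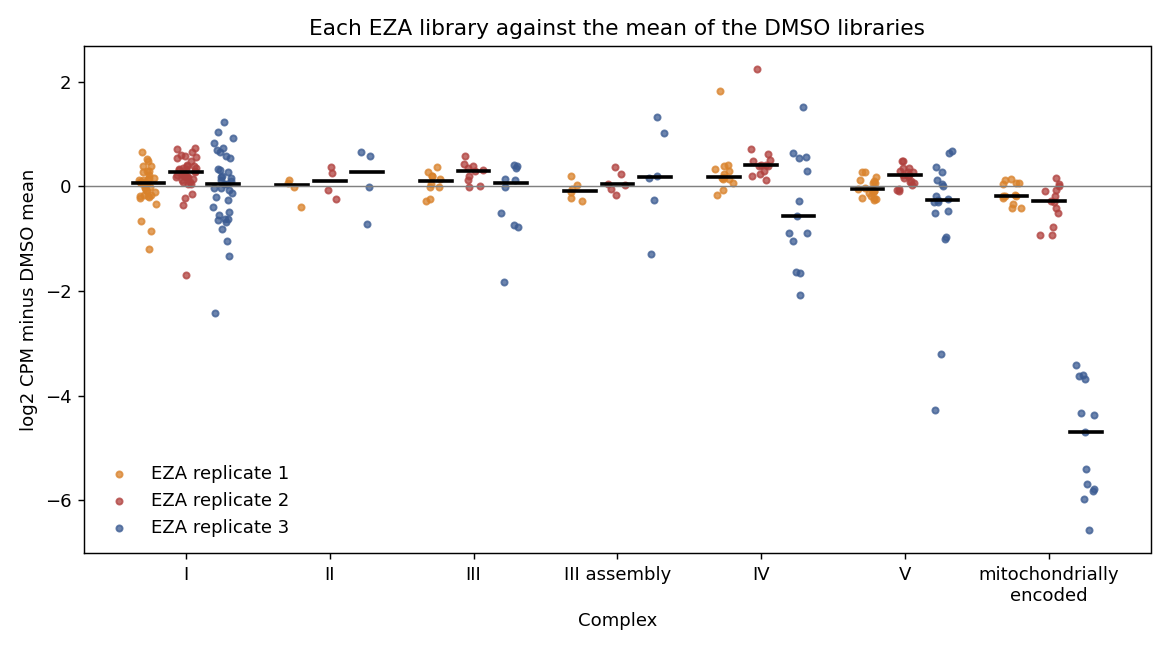
Log2 CPM of each tested gene in each EZA library minus its mean over the 3 DMSO libraries, by complex, with black lines at the medians. The mitochondrially encoded genes have medians of -0.18, -0.29 and -4.70 in EZA replicates 1 to 3, and complex IV has 0.17, 0.40 and -0.56.

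Among the core subunits of complex I, those that take electrons from NADH and lead them to ubiquinone, NDUFV1 rose. NDUFV1 (GRCh38 chr11:67605653-67612554, plus strand), which binds the flavin and NADH, had 146, 178 and 152 CPM in DMSO replicates 1 to 3 and 220.0, 234 and 371 CPM in EZA replicates 1 to 3. All 3 EZA libraries lay above all DMSO libraries, and EZA replicate 3 was the highest. The log2 fold change was 0.79 ± 0.21 (SE; edgeR adjusted p = 0.0325). Leaving out EZA replicate 3 gave 0.52 (edgeR adjusted p = 0.000175), and in the corrected fit it was 0.41 (0.208). In the corrected fit without EZA replicate 3 it was 0.14 (0.0617). Leaving out single libraries took the adjusted p of NDUFV1 to as much as 0.149.

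NDUFV2 (chr18:9102630-9134345, plus strand), the iron-sulfur subunit next to NDUFV1, was called lower at a very low level. It had 2.25, 2.17 and 1.79 CPM in DMSO and 0.825, 0.552 and 1.27 CPM in EZA, 139 counts in all. The groups did not overlap, and the log2 fold change was -1.25 ± 0.35 (SE; edgeR adjusted p = 0.0413). Without EZA replicate 3 it was -1.59 (edgeR adjusted p = 0.00156), and corrected as well -1.61 (0.002). In the corrected fit of all 6 libraries it was -1.15 and did not pass (0.105). Leaving out single libraries took the adjusted p of NDUFV2 to as much as 0.161. Exons of another annotated gene cover 90% of its main transcript, and how reads shared by overlapping genes were counted is not given, so its counts are uncertain. NDUFA5 (chr7:123536997-123557904, minus strand), an accessory subunit of the arm that reaches into the matrix, had 42.5, 32.7 and 36.8 CPM in DMSO and 20.4, 29.1 and 25.2 CPM in EZA. The highest EZA library lay below the lowest DMSO library. Its log2 fold change was -0.58 ± 0.17 (SE; edgeR adjusted p = 0.0474), and -0.14 (0.527) in the corrected fit. Without EZA replicate 3 it was -0.59 (edgeR adjusted p = 0.00157), and corrected as well -0.10 (0.474). Leaving out single libraries took the adjusted p of NDUFA5 to as much as 0.197.

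COX7A2L (chr2:42333546-42425088, minus strand) had the smallest adjusted p of the 100 genes with all 6 libraries. Its protein joins complex III to complex IV in supercomplexes. It had 70.3, 65.3 and 67.6 CPM in DMSO and 90.3, 111 and 98.5 CPM in EZA. All EZA libraries lay above all DMSO libraries, and EZA replicate 3 lay between the other EZA libraries. The log2 fold change was 0.56 ± 0.13 (SE; edgeR adjusted p = 0.0211), 0.57 (8.59e-05) without EZA replicate 3 and 0.82 (0.00382) in the corrected fit. It passed in 12 of 16 other settings, and its edgeR adjusted p reached 0.118 when a library was left out. NDUFA4L2 (chr12:57234903-57240715, minus strand) had 0.813, 1.09 and 1.02 CPM in DMSO and 3.75, 5.03 and 1.48 CPM in EZA. The groups did not overlap, with EZA replicate 3 nearest to DMSO. The log2 fold change was 1.82 ± 0.44 (SE; edgeR adjusted p = 0.0273), 2.17 (2.41e-07) without EZA replicate 3 and 1.34 (0.0911) in the corrected fit. In both groups NDUFA4L2 remained far below NDUFA4, which had 114 to 121 CPM in DMSO.

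**Figure D3:**
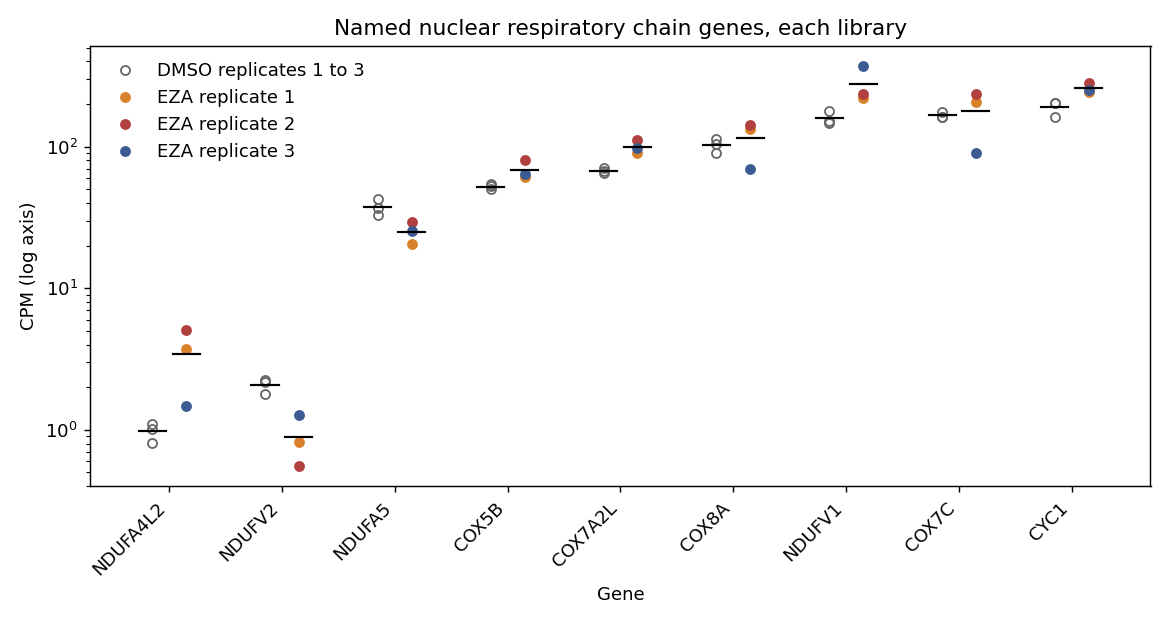
CPM (log axis) of 9 named nuclear genes in each library, with black lines at the group means. NDUFA4L2 lies at 0.813 to 1.09 CPM in DMSO and at 1.48 to 5.03 CPM in EZA, and COX7C and COX8A are higher than DMSO in EZA replicates 1 and 2 but lower in EZA replicate 3.

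Promoter sequences of 3 of the called genes are shown because these genes differ in the motifs upstream of their main transcript. The sequences are RefSeq's on GRCh38.p14, 250 bases up to the start of the main transcript in GENCODE 44 (the gene's annotated span can reach farther), written 5′ to 3′ on the gene's strand. Capitals mark a match to 1 of 4 motifs searched on both strands: the core of the NRF1 site (GCGCATGC), an ETS site (CCGGAAG), a C/EBP-ATF composite site (TGATGNAA) and the core of the cyclic AMP response element (TGACGT), none of which contains another. The COX7A2L window lies at chr2:42361218-42361467 on the minus strand, that of NDUFV1 at chr11:67606686-67606935 on the plus strand and that of NDUFA5 at chr7:123557819-123558068 on the minus strand.
COX7A2L: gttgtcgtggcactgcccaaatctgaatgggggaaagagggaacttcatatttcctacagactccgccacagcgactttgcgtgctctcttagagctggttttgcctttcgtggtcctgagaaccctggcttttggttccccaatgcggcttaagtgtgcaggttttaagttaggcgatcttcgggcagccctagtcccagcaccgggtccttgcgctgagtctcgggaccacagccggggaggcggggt
NDUFV1: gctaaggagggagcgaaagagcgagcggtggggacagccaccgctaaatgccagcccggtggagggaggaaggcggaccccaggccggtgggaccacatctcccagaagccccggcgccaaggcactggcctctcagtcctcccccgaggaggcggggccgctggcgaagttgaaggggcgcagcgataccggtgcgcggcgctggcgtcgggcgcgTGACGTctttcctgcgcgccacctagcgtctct
NDUFA5: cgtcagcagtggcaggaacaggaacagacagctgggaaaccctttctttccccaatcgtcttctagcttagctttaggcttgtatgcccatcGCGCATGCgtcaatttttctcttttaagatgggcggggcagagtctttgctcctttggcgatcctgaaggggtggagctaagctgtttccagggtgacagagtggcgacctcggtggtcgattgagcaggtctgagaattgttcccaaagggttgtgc
The NDUFV1 window held the TGACGT core, the NDUFA5 window held the NRF1 core, and the COX7A2L window held none of the 4.

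Over the respiratory chain genes as a whole, 76 had a window of this length. The NRF1 core was in 13 of them, or 17.1%, against 3.93% of 15305 promoters. The ETS site was in 18, or 23.7%, against 12.4%, and the TGACGT core in 13, or 17.1%, against 8.94%. The C/EBP-ATF site was in 1, or 1.32%, against 2.12%. Nuclear respiratory factor 1 and ETS-family GABP are textbook regulators of respiratory chain genes. A match describes letters in the window and not binding. The genes with the NRF1 core were ATP5F1C, ATP5MC2, ATP5ME, COX5B, COX6A1, NDUFA5, NDUFA6, NDUFB4, NDUFS6, NDUFS7, SDHB, SDHD and UQCC2.

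The remaining nuclear subunits of complex I moved little with all 6 libraries, where the median log2 fold change of the 36 was 0.11 with 24 positive and 12 negative. NDUFS7 and NDUFS8, which carry the iron-sulfur clusters next to ubiquinone, were called without EZA replicate 3 and not with all 6 libraries. NDUFS7 had 34.8, 44.1 and 40.7 CPM in DMSO and 62.6, 64.8 and 32.9 CPM in EZA. NDUFS8 had 63.9, 70.5 and 62.5 CPM in DMSO and 86.1, 96.4 and 62.6 CPM in EZA. In both genes EZA replicates 1 and 2 lay above DMSO, and EZA replicate 3 lay within or below it. Without EZA replicate 3 the log2 fold changes were 0.68 ± 0.12 and 0.48 ± 0.11 (SE), with edgeR adjusted p = 1.66e-05 and 0.000730. Corrected as well, they were 0.13 and -0.01, with 0.170 and 0.898, and 51.3% of the NDUFS7 transcript lies under exons of other genes. NDUFS5, the most abundant, had 201, 208 and 196 CPM in DMSO and 197, 230.3 and 175 CPM in EZA, overlapping groups with a log2 fold change of -0.01 ± 0.13.

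In complex II, no gene passed with all 6 libraries, and 1 was higher and 1 lower at an unadjusted p below 0.05. DESeq2 also called 0. SDHB had 96.1, 86.3 and 81.7 CPM in DMSO and 94.5, 113 and 138 CPM in EZA. The groups overlapped through EZA replicate 1, and the log2 fold change was 0.39 ± 0.16 (SE; edgeR adjusted p = 0.119). SDHD, a membrane anchor, had 49.6, 37 and 38.3 CPM in DMSO and 31.2, 34.7 and 24.9 CPM in EZA, without overlap, and its log2 fold change was -0.46 ± 0.18 (edgeR adjusted p = 0.100). It was called lower when EZA replicate 3 was left out, at -0.33 (0.0394), and not when corrected as well, at -0.19 (0.0938). That corrected fit called SDHB higher, at 0.19 (0.0275), and SDHA, the flavin subunit, lower, at -0.16 (0.0450), with 69.4% of the SDHA transcript under exons of other genes.

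In complex III, the summed level of the 10 genes was 1230.3 to 1254 CPM in DMSO and 1322, 1529 and 1269 CPM in EZA replicates 1 to 3. CYC1, the cytochrome that passes electrons to cytochrome c, had 163, 202 and 203 CPM in DMSO and 243, 281 and 249.6 CPM in EZA. All EZA libraries lay above DMSO, and the log2 fold change of 0.45 ± 0.14 (SE) missed the threshold (edgeR adjusted p = 0.0530). DESeq2 called 2 of the 10 genes higher, CYC1 among them, and 0 lower. Its shares were 12.2% and 8.98% of the genes to which it gave an adjusted p. CYC1 passed in 4 of 16 other settings. Leaving out EZA replicate 3 gave 0.47 (0.000826), and corrected as well 0.03 (0.701). UQCRC1, a core protein, had 254, 261 and 243 CPM in DMSO and 307, 331 and 321 CPM in EZA, without overlap (log2 fold change 0.34 ± 0.11, edgeR adjusted p = 0.0709). Without EZA replicate 3 UQCRC1 was at 0.34 (edgeR adjusted p = 0.00865), and corrected as well at 0.02 (0.812). In the corrected fit of all 6 libraries it was at 0.04 (0.764). UQCRH had 244, 231 and 219.9 CPM in DMSO and 229, 286 and 161 CPM in EZA, with overlap and a log2 fold change of -0.04. Of the assembly factors, UQCC4 had 19.5, 24.3 and 21.4 CPM in DMSO and 17.8, 20.8 and 44.1 CPM in EZA, high in EZA replicate 3 alone. UQCC3, which helps assemble cytochrome b, showed the same order, with 13 to 17.2 CPM in DMSO and 15, 17.2 and 37 CPM in EZA.

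Complex IV had the widest gap between EZA replicate 3 and the other EZA libraries among the nuclear sets. All 13 tested genes had a positive log2 fold change without EZA replicate 3, with a median of 0.29, and 9 were called higher. Of all 13787 genes in that fit, 6717 were positive and 19.1% were called higher. Corrected as well, the complex IV median was 0.20, with 12 positive and 1 negative. In that fit 7 were called higher, against 19.4% of all genes. With all 6 libraries the median was 0.12 and 2 were called, and without EZA replicate 2 the median was -0.06, with 5 positive and 8 negative and 0 called (3 higher at an unadjusted p below 0.05). COX7C had 175, 161 and 163 CPM in DMSO and 205, 237 and 89.8 CPM in EZA. COX8A had 90.5, 113 and 104 CPM in DMSO and 134, 143 and 69.2 CPM in EZA. Both are small membrane subunits, and both were above all DMSO libraries in EZA replicates 1 and 2 and below them in EZA replicate 3. Without EZA replicate 3 their log2 fold changes were 0.41 ± 0.11 and 0.44 ± 0.11 (SE; edgeR adjusted p = 0.00203 and 0.00151). Corrected as well, COX7C was at 0.50 (2.47e-07) and COX8A at 0.09 (0.321). With all 6 libraries they were at 0.09 and 0.17 (0.857 and 0.650), and 35.4% of the COX8A transcript lies under exons of other genes.

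Other complex IV genes split by their level in EZA replicate 3. COX4I1, an early-assembling subunit, had 307, 307 and 306 CPM in DMSO and 341, 405 and 478 CPM in EZA, without overlap (log2 fold change 0.41 ± 0.15, edgeR adjusted p = 0.0846). COX6B1 had 98.9, 96.6 and 95.9 CPM in DMSO and 121, 127 and 52.5 CPM in EZA. COX6A1 had 50.8, 56.2 and 53.3 CPM in DMSO and 60.2, 69.7 and 17.0 CPM in EZA. COX6B1 and COX6A1 thus exceeded DMSO in EZA replicates 1 and 2 and lay at a lower level in EZA replicate 3. COX7A2 had 90.9, 87.4 and 82.5 CPM in DMSO and 96.1, 116 and 70.8 CPM in EZA, and COX7B had 48.4, 41.1 and 39.8 CPM and 46.9, 49.0 and 20.6 CPM. NDUFA4 had 121, 114 and 121 CPM in DMSO and 124, 145 and 28.0 CPM in EZA. These 3 also had their lowest level in EZA replicate 3, and none passed with all 6 libraries (edgeR adjusted p = 0.675, 0.752 and 0.746).

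ATP synthase genes showed no call with all 6 libraries, with 1 higher and 0 lower at an unadjusted p below 0.05 and 0 called by DESeq2. The median log2 fold change was -0.04, with 7 positive and 11 negative of 18. ATP5F1B had 982, 984 and 963 CPM in DMSO and 914, 1088 and 816 CPM in EZA, with overlap and a log2 fold change of -0.06 ± 0.15. Its partner in the catalytic head, ATP5F1A, had 649 to 719.5 CPM in DMSO and 593 to 701 CPM in EZA. ATP5IF1, the inhibitor of the enzyme, had 56.8, 66.7 and 60.9 CPM in DMSO and 66.4, 71.7 and 51.4 CPM in EZA, with overlap and a log2 fold change of 0.04 ± 0.15. ATP5MC2, which encodes the subunit of the proton-carrying ring, had 194, 202 and 199 CPM in DMSO and 239.9, 279 and 138 CPM in EZA. It was called higher without EZA replicate 3 and not with all 6 libraries (log2 fold change 0.39, edgeR adjusted p = 0.00303), and corrected as well the adjusted p was 0.103.

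The 13 mitochondrially encoded genes were all lower in EZA replicate 3 than in any other library. Their summed level was 42363 to 47691 CPM in DMSO and 42519, 37105 and 1731 CPM in EZA replicates 1 to 3. None was called with all 6 libraries, 0 at an unadjusted p below 0.05 and 0 by DESeq2, and all 13 log2 fold changes were negative with a median of -0.80. Leaving out EZA replicate 3 gave a median of -0.23, with 3 positive and 10 negative, and limma-voom on all 6 libraries gave -1.92. The genes are read from long shared transcripts of the circular DNA, and 3 pairs overlap in sequence, MT-ATP6 and MT-CO3 by 1 base. The longer overlaps are shown because a read there belongs to both genes. They are from GENCODE 44 transcripts, at chrM:8527-8572 and chrM:10760-10766 of GRCh38 on the plus strand, and capitals mark the start codon of the downstream gene.
MT-ATP8 and MT-ATP6: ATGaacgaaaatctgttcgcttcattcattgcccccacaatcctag
MT-ND4L and MT-ND4: ATGctaa
MT-ATP8, with 46 of its bases in the overlap, had 12.8, 12.4 and 12.6 CPM in DMSO and 11.1, 12 and 0.919 CPM in EZA. Its neighbour MT-ATP6 had 5143, 4641 and 5008 CPM in DMSO and 4316, 4020.1 and 51.8 CPM in EZA. The 2 proteins are translated from a shared messenger, and MT-ATP8 had the far lower count in every library. The part of shared reads in this gap was not tested.

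In EZA replicates 1 and 2, 6 of the 7 complex I genes of the mitochondrial DNA lay below every DMSO library, MT-ND3 being the exception, and so did MT-ATP6 and MT-ATP8. The share of all genes placed this way in these 2 EZA libraries was not computed, so the count is a description. With EZA replicate 3 required as well, a stricter condition, it was 21.7% of all genes. MT-ND1, at the ubiquinone entry, had 1421, 1288 and 1266 CPM in DMSO and 994, 771 and 50.8 CPM in EZA. MT-ND6, the only protein gene on the other strand, had 1004, 939 and 882 CPM in DMSO and 706, 493 and 45 CPM in EZA. In both genes each EZA library lay below each DMSO library. Without EZA replicate 3 the log2 fold changes were -0.58 ± 0.11 and -0.65 ± 0.12 (SE; edgeR adjusted p = 5.51e-05 and 0.000116), and corrected as well -0.66 and -0.60 (0.0664 and 0.203). Since strand is not marked, reads of MT-ND6 cannot be told apart from reads of the opposite strand.

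MT-ND4, a proton-pumping subunit, had 8926, 8077 and 7998 CPM in DMSO and 7133, 5795 and 133 CPM in EZA. MT-ND4L had 924, 769 and 769 CPM in DMSO and 648, 613 and 63.1 CPM in EZA. These were also called lower without EZA replicate 3, at -0.36 (0.00487) and -0.38 (0.00475) by edgeR adjusted p, and of these only MT-ND4L passed when corrected as well (0.0097, against 0.107 for MT-ND4). MT-ND5 had 3089, 2903 and 2703 CPM in DMSO and 2557, 1524 and 273 CPM in EZA. EZA replicates 1 and 2 differed widely there, and the log2 fold change of -0.50 ± 0.22 without EZA replicate 3 did not pass (edgeR adjusted p = 0.137). MT-ND2 had 2444, 2012 and 2199 CPM in DMSO and 1983, 1783 and 52.4 CPM in EZA (-0.23, edgeR adjusted p = 0.0737 without EZA replicate 3). MT-ND3 had 759, 674 and 749.6 CPM in DMSO and 794, 804 and 36.1 CPM in EZA, above DMSO in EZA replicates 1 and 2. In the corrected fit without EZA replicate 3, MT-ND3 was called higher and MT-ATP6 lower (edgeR adjusted p = 0.0127 and 0.0134).

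The mitochondrial genes of complexes III and IV were not called in either direction. MT-CO1, the catalytic subunit of complex IV, had 10511, 9406 and 9716 CPM in DMSO and 10161, 9185 and 797 CPM in EZA. MT-CO2, which takes electrons from cytochrome c, had 4289, 3558 and 3816 CPM in DMSO and 4222, 3973 and 69.9 CPM in EZA. MT-CO3 had 5067, 4452 and 4761 CPM in DMSO and 4995, 4751 and 83.2 CPM in EZA. For these genes EZA replicates 1 and 2 lay at about the DMSO level, and the log2 fold changes without EZA replicate 3 were -0.03, 0.08 and 0.04 (SE 0.10 each; edgeR adjusted p = 0.852, 0.580 and 0.807). MT-CYB, cytochrome b, had 4103, 3632 and 3791 CPM in DMSO and 3999, 3382 and 74.7 CPM in EZA (-0.06, 0.704). A difference between the complex I genes and these 4 was not tested.

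**Figure D4:**
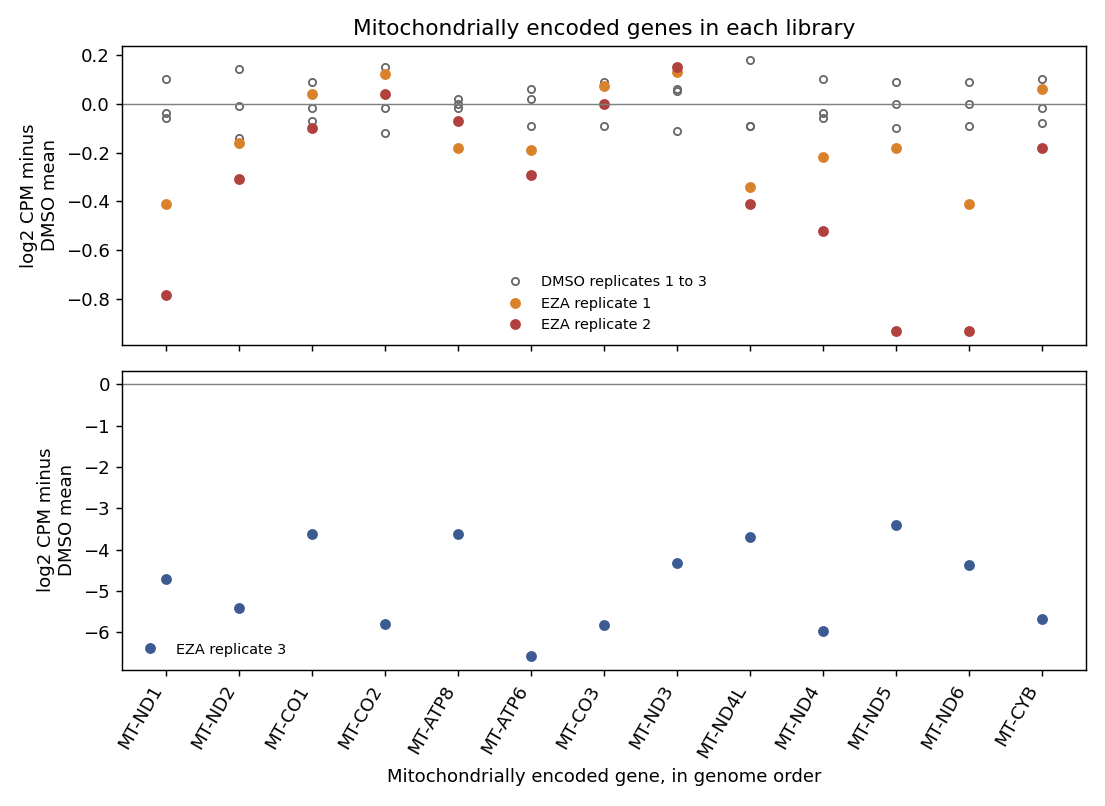
Log2 CPM of the 13 mitochondrially encoded genes minus the DMSO mean, in genome order, for the DMSO libraries and EZA replicates 1 and 2 (top) and for EZA replicate 3 (bottom, on a wider scale). MT-ND1, MT-ND4L, MT-ND4 and MT-ND6 lie below all DMSO libraries in EZA replicates 1 and 2, and every gene lies below -3 in EZA replicate 3.

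The lower level of mitochondrial transcript in EZA replicate 3 was uneven. Relative to the mean of EZA replicates 1 and 2, its level was 1.24% for MT-ATP6, 1.71% for MT-CO2 and for MT-CO3 and 2.06% for MT-ND4. It was 8.24% for MT-CO1, 10% for MT-ND4L and 13.4% for MT-ND5. The ratio of the mean of EZA replicates 1 and 2 to EZA replicate 3 thus ran from 7.48 to 80.4 within 1 genome.

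Nuclear genes of the chain were also spread widely in EZA replicate 3. Of the 87 tested, 15 were at least 2-fold below the mean of EZA replicates 1 and 2 there and 4 were at least 2-fold above it. The 15 are 17.2%, against 5.33% of 11417 nuclear protein-coding genes, of which 2.34% were 2-fold higher. Complex IV held 7 of the 15. ATP5PF, a stalk subunit of ATP synthase, was second lowest with 48.0, 50.4 and 55.0 CPM in DMSO and 43.9, 48.9 and 5.44 CPM in EZA. NDUFB4, a membrane-arm subunit of complex I, had 71.1, 58.0 and 64.0 CPM in DMSO and 56.8, 70.2 and 11.9 CPM in EZA. UQCR10, a small subunit of complex III, had 53.1, 50.5 and 51.0 CPM and 56.8, 58.9 and 14.4 CPM. In these 3 genes EZA replicates 1 and 2 lay within or near the DMSO range, with EZA replicate 3 far below it. The lowest of all was ATP5MF, at -4.58 on the log2 scale, with 37.2% of its transcript under exons of other genes. COX5A had 128, 117 and 119 CPM in DMSO and 115, 132 and 39.0 CPM in EZA, and NDUFA3 had 29.0, 35.9 and 32.1 CPM and 42.0, 42.3 and 12.7 CPM.

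The 4 genes in the other direction were COX6C, UQCC3, UQCC4 and NDUFB3. COX6C, a small subunit of complex IV, had 139, 129 and 125 CPM in DMSO and 118, 153 and 375 CPM in EZA. NDUFB3 had 30.7, 26.6 and 27.4 CPM in DMSO and 22.3, 29.8 and 53.3 CPM in EZA. Both were above every other library in EZA replicate 3 alone, and COX6C was the only 1 of the 13 tested complex IV genes that was at least 2-fold higher there. The shift was related to length, as a description over genes of the same libraries. The 27 genes with a coding length under 300 bases had a median difference of -0.39 and 29.6% of them were at least 2-fold lower, against -0.12 and 17.5% of 200 other nuclear protein-coding genes of that length. The 11 with at least 1000 bases had a median of 0.01 and 0 that were 2-fold lower, against 0.09 and 3.12% of 7882 others. Spearman's rho with coding length was 0.21 over the 87 genes and 0.21 over 11417 genes. By transcript length, the 21 genes under 600 bases had a median of -0.33, against -0.46 for 121 others. At least 2-fold lower were 19.0% and 28.9%. For the 16 genes from 900 to under 1500 bases the median was -0.51, against -0.07 for 1009 others, with 31.2% and 10.7% 2-fold lower. Whether the shortest members fell more than other genes of that length thus depended on the length used. Members of 1 length class still differed strongly, with an SD of 1.22 on the log2 scale in the class of shortest coding length, where ATP5MF and COX6C stand at opposite ends.

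**Figure D5:**
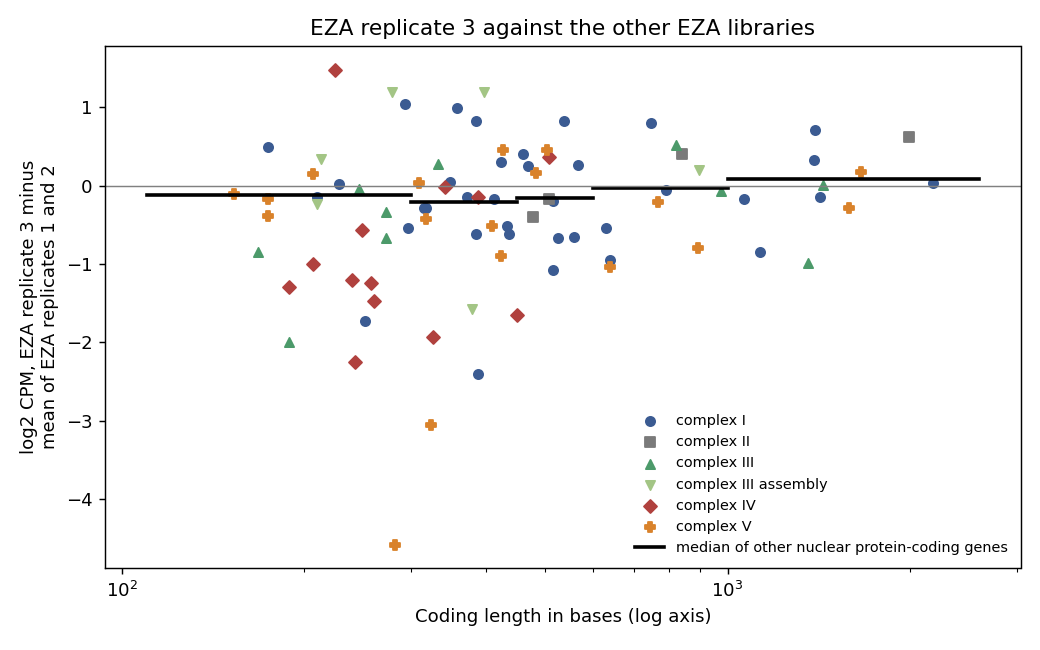
Log2 CPM of each tested nuclear gene in EZA replicate 3 minus the mean of EZA replicates 1 and 2 against coding length (log axis), with black lines at the median of other nuclear protein-coding genes in 5 length classes. Genes under 300 bases range from -4.58 (ATP5MF) to 1.48 (COX6C), and the genes of at least 1000 bases have a median of 0.01.

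Genes that build and supply the chain were taken from lists of assembly factors, mitochondrial gene expression, biogenesis regulators, ubiquinone synthesis and the mitochondrial ribosome. Of 20 complex I assembly factors 1 was called higher (TIMMDC1) and 0 lower, of 11 for complexes II, III and V 0 and 2 (LYRM7 and SDHAF3), and of 24 for complex IV 1 and 1 (SURF1 and COA7). In the corrected fit TIMMDC1, LYRM7, SDHAF3 and COA7 did not pass (edgeR adjusted p = 0.0562, 0.142, 0.126 and 0.0634). SURF1, which helps insert heme into MT-CO1, had 17.5, 15.8 and 14.4 CPM in DMSO and 28.4, 31.3 and 35.6 CPM in EZA. All EZA libraries lay above DMSO, and the log2 fold change was 1.00 ± 0.15 (SE; edgeR adjusted p = 0.00617, and 0.0287 in the corrected fit). Of 27 genes of mitochondrial DNA expression 1 was higher (FASTK) and 5 lower, FASTKD2, PNPT1, FASTKD5, MTPAP and MTERF3. FASTKD5, which processes mitochondrial RNA that lacks tRNA boundaries, had 95.4, 81.1 and 91.4 CPM in DMSO and 57.8, 61.2 and 32.9 CPM in EZA, without overlap (log2 fold change -0.82 ± 0.22, edgeR adjusted p = 0.0361). In the corrected fit none of these 6 passed (edgeR adjusted p from 0.0554 to 0.191), and 0 genes of the list were higher and 1 lower.

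Of 9 biogenesis regulators, 3 fell and 1 rose. PPARGC1B, a coactivator of mitochondrial genes, had 30.7, 38.5 and 36.4 CPM in DMSO and 19.3, 14.3 and 22.5 CPM in EZA, without overlap (log2 fold change -0.92 ± 0.19, edgeR adjusted p = 0.0157). PPRC1, its relative, had 147, 164 and 141 CPM in DMSO and 107, 68.2 and 94.8 CPM in EZA (-0.75 ± 0.17, edgeR adjusted p = 0.0243). NRF1, whose site was counted in the promoters, had 24.8, 26.2 and 23.9 CPM in DMSO and 18.5, 19.1 and 13.6 CPM in EZA (-0.55 ± 0.16, edgeR adjusted p = 0.0475). All 3 were also called lower in the corrected fit, with edgeR adjusted p = 0.0113, 0.0114 and 0.0469. ESRRA, a nuclear receptor of the same network, was higher, with 84.4, 102 and 96.1 CPM in DMSO and 127, 132 and 170.2 CPM in EZA (0.60 ± 0.15, edgeR adjusted p = 0.0302, and 0.441 in the corrected fit). Of 15 genes of ubiquinone synthesis and cytochrome c, 3 were higher (COQ8B, COQ4 and COQ8A) and CYCS, cytochrome c itself, was lower, with 144, 116 and 124 CPM in DMSO and 82.4, 97.8 and 72.3 CPM in EZA. In the corrected fit COQ8B passed (edgeR adjusted p = 0.0210), and COQ4, COQ8A and CYCS did not (0.302, 0.0883 and 0.155). Of 77 mitochondrial ribosome genes 1 was higher (MRPL24) and 1 lower (MRPL42), neither of which passed in the corrected fit (edgeR adjusted p = 0.102 and 0.5). These lists compare with 9.89% higher and 7.82% lower of all genes, and each of the calls was lost when single libraries were left out, SURF1 included (edgeR adjusted p up to 0.0517). Without EZA replicate 3, higher and lower calls were 4 and 0 of 20, 4 and 3 of 11 and 1 and 6 of 24 assembly factors. For mitochondrial DNA expression they were 1 and 11 of 27, and for biogenesis regulators 1 and 5 of 9. Ubiquinone synthesis and cytochrome c had 4 and 2 of 15, and the mitochondrial ribosome 7 and 6 of 78. Of all genes, that fit called 19.1% higher and 19.2% lower.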

How the data were processed

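Per the labels' protocols, polyadenylated RNA was captured on oligo(dT) beads and converted to unstranded NEBNext Ultra libraries. HISAT2, featureCounts, FastQC, DESeq2 and the build GRCh38 (hg38) are named in the submitters' processing notes; neither versions nor options nor the annotation are given there. Gene counts deposited by the authors as whole numbers served for every test, and the deposited FPKM served only to compare levels between genes. Symbols and positions came from GENCODE 44. Genes kept by filterByExpr were tested after TMM scaling in edgeR 4.0.16 (two-sided; robust glmQLFit, glmQLFTest; R 4.3.3; Benjamini-Hochberg over 13503 genes); SEs come from the F statistic and CPM from TMM-scaled counts. The common biological coefficient of variation was 18.4%. Separate cultures are not described, so p-values rest on the spread between these samples, which may be technical. The corrected fit removed each library's trend with GC content and length by lowess (span 0.3) as offsets. Alternatives were other scalings and filters, DESeq2 1.42.0, limma-voom 3.58.1, the replicate block and each library left out. The edgeR script was tested on simulated counts. Values in every library are given for called genes (1 is not reported here), up to 12 genes of at least 1.3-fold called without EZA replicate 3, the highest gene of each complex, extremes in EZA replicate 3, isoforms and mitochondrial genes; others are named outside this rule after their values were seen. The members and lists were chosen with earlier results of these data known. Deviations from the group means correlated at 0.0327, -0.175 and 0.0266 between same-numbered DMSO and EZA replicates. With 3 libraries a group, such values cannot show whether the numbers pair samples.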

Additional observations from a re-analysis of the deposited data

How the results depend on the processing

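Depth limits genes at a few CPM, such as NDUFV2 with 139 counts over 6 libraries, and 3 replicates a group limit the rest. The number of genes called higher was 4, 7 without a low-count filter, 7 with DESeq2, 2 with the length trend removed, 18 in the corrected fit without EZA replicate 3, and 0 to 22 with each library left out. The number called lower was 2, and 1 with DESeq2's size factors, 1 with scaling without mitochondrially encoded genes, 0 in the corrected fit, 8 in the corrected fit without EZA replicate 3, 1 without the genes under exons of others (added after seeing the data) and 0 to 7 with each library left out. With the replicate number as a block, 3 were higher and 0 lower. Whether same-numbered samples belong together is not known. Over all genes 2392 calls became 1550 in the corrected fit, 5348 in that fit without EZA replicate 3 and 220 to 5289 with each library left out. The median log2 fold change of complex I ran up to 0.24 without EZA replicate 1, that of complex III up to 0.17 without EZA replicate 3, that of complex IV from -0.06 without EZA replicate 2 to 0.29 without EZA replicate 3, that of the mitochondrially encoded genes from -1.92 with limma-voom and -1.45 with the replicate block to -0.23 without EZA replicate 3, and that of complex II was -0.02 in the corrected fit without EZA replicate 3. Sign changes were NDUFS7 (-0.14), NDUFS8 (-0.16) and COX8A (-0.09) in the corrected fit, NDUFS8 (-0.01), MT-CO2 (0.03) and MT-ND3 (0.24) in that fit without EZA replicate 3, and COX7C with limma-voom (-0.03), the replicate block (-0.02) and the length trend removed (-0.09). With single libraries left out the sign changed for COX7C (-0.17 to 0.41), COX8A (-0.01 to 0.44), MT-CO2 (-0.94 to 0.08), MT-CO3 (-0.98 to 0.04) and MT-ND3 (-0.81 to 0.14). The causes were not tested.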

Other observations

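The 9 tested genes of mitochondrial DNA that make no protein were also low in EZA replicate 3, at 1.51% (MT-TC) to 49.6% (MT-TH) of the mean of EZA replicates 1 and 2. The 15 untested transfer RNA genes had few counts, and some were not low there, such as MT-TR with 8, 9 and 4 counts in DMSO and 6, 5 and 15 counts in EZA. MT-RNR2, the large ribosomal RNA, had 1438, 1187 and 1218 CPM in DMSO and 864, 940.2 and 249 CPM in EZA replicates 1 to 3. MT-RNR1, the small ribosomal RNA, had 312, 331 and 260.5 CPM in DMSO and 242, 228 and 38.3 CPM in EZA. Both were below DMSO in EZA replicates 1 and 2, and EZA replicate 3 held 27.6% and 16.3% of the mean of those 2, a larger share than for any of the 13 protein genes. Of 9 tested noncoding mitochondrial genes 0 were called higher and 1 lower with all 6 libraries, the transfer RNA gene MT-TE, with 3, 2.62 and 1.73 CPM in DMSO and 1.4, 0.718 and 0.283 CPM in EZA (edgeR adjusted p = 0.0483), against 7.82% of all genes lower. The call was lost in the corrected fit (0.112) and with single libraries left out (up to 0.192). Without EZA replicate 3, 0 of 10 tested noncoding mitochondrial genes were higher and 3 lower, against 19.2% of all genes lower. In EZA replicate 3, 4 nuclear copies of mitochondrial genes, MTND2P28, MTATP6P1, MTND1P23 and MTCO1P12, were at 1.16%, 7.65%, 10.1% and 36.0% of the mean of EZA replicates 1 and 2. How reads that match both a nuclear copy and mitochondrial DNA were assigned is not given, so these counts may include mitochondrial reads. NDUFA7 had 28 counts over all libraries, below the level needed for testing, with 77.9% of its transcript under exons of other genes.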
